A study of Homo sapiens with 2 samples.

Results

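Chemokines are small secreted or membrane-tethered proteins that direct the movement of leukocytes and other cells, and their receptors are G-protein-coupled receptors at the cell surface. The genes described here were the protein-coding rows of a TPM table whose symbols follow the CCL, CXCL, CCR and CXCR numbering, together with CX3CL1, CX3CR1, XCL1, XCL2, XCR1 and the atypical receptors ACKR1 to ACKR4. This rule used names and no measured value, and it found 63 genes (41 ligands and 22 receptors) of 17409 protein-coding genes in the table. Total RNA had been sequenced from RC77 T/E and MDA PCa 2b, which are human prostate cancer (PCa) cell lines. Both were untreated, and each had 1 paired-end, directional library. The study investigated signalling between platelets and PCa cells, and it considered the chemokine CCL3L1 and its CCR receptors among the candidate axes. It reported that an antibody against CCL3L1 reversed the invasion of both lines that platelets stimulated, as did an antibody against the cytokine IL32. Without platelets, added CCL3L1 alone had no significant effect, whereas CCL3L1 and IL32 together raised invasion. CCL3L1 transcripts were reported in platelets, with few or none in the lines.

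MDA PCa 2b cells grew in Kaighn's F-12 medium with serum, cholera toxin, EGF, phosphoethanolamine, hydrocortisone, selenite, insulin and antibiotics. RC77 T/E cells grew in the serum-free keratinocyte medium with EGF and bovine pituitary extract, so that the effects of the line and of its medium cannot be told apart. TPM, the transcript abundance in the table, is a level normalised for gene length and library total. It keeps no read depth, so the precision of each value is unknown. With 1 library per line, no difference below has a replicate check, and no test was made. A log2 difference below is the log2 of (RC77 T/E TPM + 1) over (MDA PCa 2b TPM + 1), which understates the change of low genes. The cutoff of 1 TPM was applied here to each library on its own, whereas the study asked for that level of the average over the sequenced samples.

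Chemokines are grouped by the spacing of their first cysteines into CC, CXC, CX3C and XC ligands, and most receptors bind ligands of a single group. Conventional receptors signal through inhibitory G proteins to move the cell, whereas atypical receptors bind chemokines without this signal and remove or relay them. In prostate and other epithelia, ligands such as CXCL8 and CCL20 are made by the epithelial cells and read by neutrophils, lymphocytes and dendritic cells. Many inflammatory ligand genes lie in clusters of recent duplicates and are known targets of the transcription factor NF-kB.

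The upstream sequences of the clustered CXC ligands are shown first because they hold 6 of the 13 genes that reached 1 TPM in RC77 T/E. A 9-base NF-kB motif, GGANTTTCC, was searched on both strands from 250 bases before to 50 bases after each start site in RefSeq promoters of GRCh38.p14. It occurred in 577 of 35116 promoters (1.64%). Promoter entries matched 43 of the 63 genes, and 8 of the 43 (18.6%) held the motif. A gene was counted if any of its entries matched, whereas the 1.64% is a share of entries, so the 2 shares are not alike. All 8 were CXC ligands, among 13 CXC ligands with an entry. Only this form of the motif was searched, so NF-kB sites of other forms in the 43 promoters were not tested. In the lines that follow, the capitals mark the motif and 30 bases stand on either side of it, 5′ to 3′ on the strand of the gene.
CXCL1 (chr4:73869285-73869353, + strand): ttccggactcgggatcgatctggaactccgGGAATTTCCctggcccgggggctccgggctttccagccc
CXCL2 (chr4:74099234-74099302, - strand): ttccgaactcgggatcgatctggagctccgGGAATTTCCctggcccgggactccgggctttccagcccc
CXCL3 (chr4:74038729-74038797, - strand): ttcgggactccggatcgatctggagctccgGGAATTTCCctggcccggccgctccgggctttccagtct
CXCL5 (chr4:73998729-73998797, - strand): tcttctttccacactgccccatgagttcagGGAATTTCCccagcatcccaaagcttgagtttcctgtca
CXCL6 (chr4:73836559-73836627, + strand): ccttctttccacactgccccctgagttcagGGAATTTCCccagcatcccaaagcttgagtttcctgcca
CXCL8 (chr4:73740448-73740516, + strand): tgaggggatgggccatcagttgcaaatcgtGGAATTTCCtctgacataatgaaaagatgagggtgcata
CXCL10 (chr4:76023635-76023703, - strand): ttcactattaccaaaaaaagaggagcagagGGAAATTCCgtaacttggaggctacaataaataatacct
CXCL11 (chr4:76036107-76036175, - strand): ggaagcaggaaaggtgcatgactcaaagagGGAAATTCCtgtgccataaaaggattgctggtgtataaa

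The first 6 sequences carry the motif on the gene's own strand, and CXCL10 and CXCL11 carry it on the opposite strand. Aligned at the motif without gaps, CXCL1 and CXCL3 had the same base at 62 of 69 positions, and CXCL1 and CXCL2 at 56. CXCL5 and CXCL6 shared 66 of 69 bases. CXCL8 shared 26 bases with CXCL1 and 20 with CXCL5. The motif began 78 bases before the start site in CXCL1 and CXCL3, 77 in CXCL2, 90 in CXCL5, 89 in CXCL6, 91 in CXCL8, 75 in CXCL11 and 176 in CXCL10. These genes are partly copies of each other, so their motifs are not separate occurrences, and a match is a description of the sequence only.

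Few chemokine genes reached 1 TPM, and more of them did so in RC77 T/E cells. In MDA PCa 2b, 3 of the 63 genes (4.76%) reached 1 TPM, against 57.9% of all protein-coding genes in that library. In RC77 T/E, 13 genes (20.6%) were, against 61.7% of all protein-coding genes. CXCL8 and CXCL16 were at this level in both lines. XCL1 alone was at this level only in MDA PCa 2b (1.59% of the genes, against 4% of all protein-coding genes). The other 11 genes were at this level only in RC77 T/E, which is 17.5% of the genes against 7.75% of all protein-coding genes. Another 49 genes stayed below 1 TPM in both lines, and 34 of the 63 stayed below 0.1 TPM in both. Of all 63, 14 were listed at 0 in both lines (22.2%, against 12% of all protein-coding genes).

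**Figure D1:**
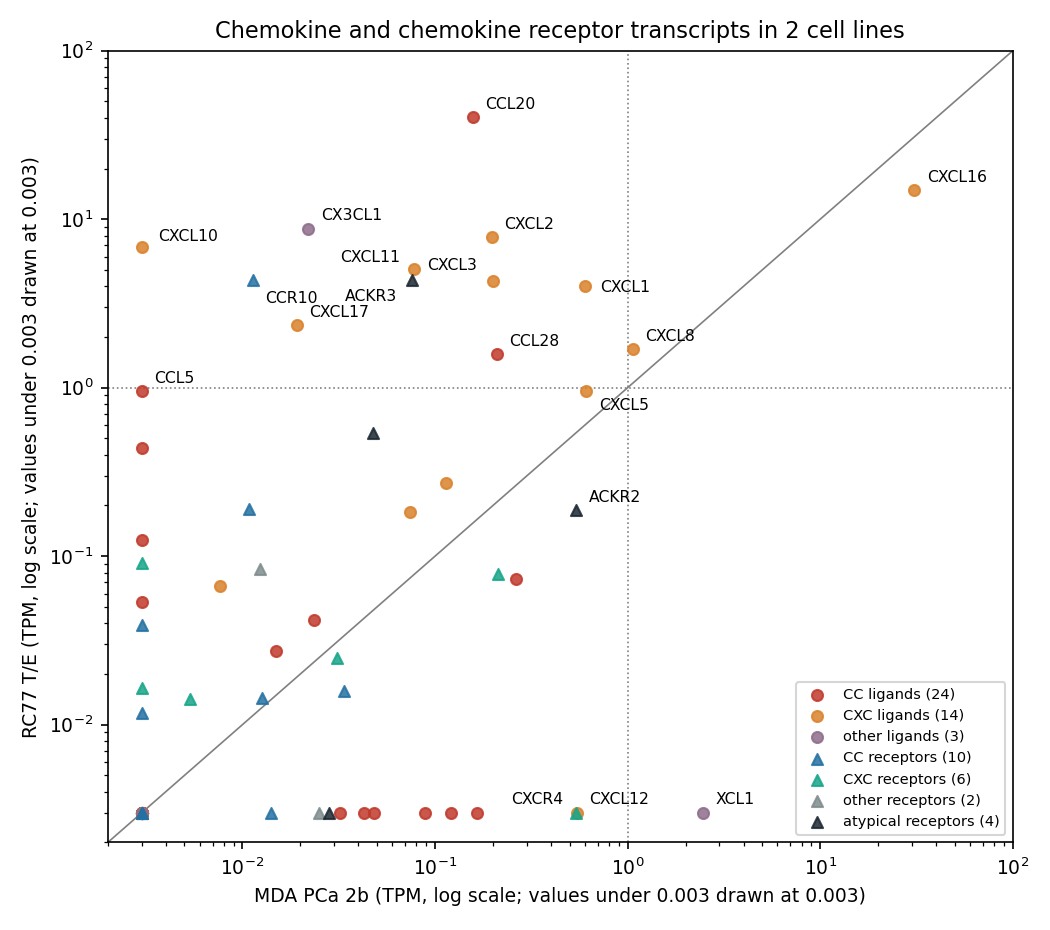
Level of each of the 63 genes in MDA PCa 2b (x axis) and RC77 T/E (y axis), in TPM on log axes, with ligands as circles and receptors as triangles, 1 library per line and dotted lines at 1 TPM. As drawn, CCL20 stands highest in RC77 T/E at 40.2 TPM, 11 genes lie in the upper left field, and CXCL10, CXCL16 and XCL1 are drawn at the lowest position of an open decimal mark.

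Below this level the directions were nearly even. Of 35 genes above 0 in either line and under 1 TPM in both, 19 were higher in RC77 T/E, while 16 had their higher value in MDA PCa 2b. The share higher in RC77 T/E was 54.3%, against 53.3% of the 3887 protein-coding genes in that range. CXCR5, listed at 6.07e-18 TPM in MDA PCa 2b, counts here as above 0. Over the 49 genes above 0 in either line, the median log2 difference was 0.056, against -0.016 over all such protein-coding genes. A mean of at least 1 TPM was reached by 13 genes. Of these, 10 were higher by 2-fold or more in RC77 T/E, against 19.1% of the 11012 protein-coding genes with such a mean, and XCL1 alone was in MDA PCa 2b, against 19.7%. All 10 were under 1 TPM in MDA PCa 2b and XCL1 was under it in RC77 T/E, so these 11 passed the limit on the mean only through the line in which they were high and had to differ. The median log2 difference over the 13 genes (2.31, against -0.15 over all 11012) is set by that limit and is no separate result.

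The CXC ligands, many of which attract neutrophils or activated T cells, held most of the genes at 1 TPM or more in RC77 T/E. Of 14 CXC ligands, 2 in MDA PCa 2b but 8 in RC77 T/E were at 1 TPM or more. The shares of all protein-coding genes were 57.9% and 61.7%, so the RC77 T/E share was near that of all genes and the MDA PCa 2b share below it. The neutrophil attractants CXCL1, CXCL2 and CXCL3, which act through CXCR2, were all higher in RC77 T/E. CXCL2 (ENSG00000081041, chr4:74097040-74099196) had 0.197 TPM in MDA PCa 2b against 7.81 TPM in RC77 T/E, a log2 difference of 2.88. CXCL3 (ENSG00000163734, chr4:74036589-74038807) had 0.201 TPM in MDA PCa 2b against 4.33 TPM in RC77 T/E, a log2 difference of 2.15. CXCL1 (ENSG00000163739, chr4:73869393-73871308) had 0.603 TPM in MDA PCa 2b against 4.01 TPM in RC77 T/E, a log2 difference of 1.64. All 3 were thus below 1 TPM in MDA PCa 2b and above 4 TPM in RC77 T/E. They are near copies: 22.4% of the 31-base stretches in CXCL2 transcripts, 14.4% in CXCL1 and 9.54% in CXCL3 also occur in transcripts of other genes, so the split of reads among them is uncertain.

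Their cluster neighbours differed less. CXCL8 (ENSG00000169429, chr4:73740519-73743716), the interleukin-8 gene and a ligand of CXCR1 and CXCR2, had 1.06 TPM in MDA PCa 2b against 1.70 TPM in RC77 T/E. Its log2 difference of 0.39 was under 2-fold, and it was the only CXC ligand of this cluster above 1 TPM in both lines. CXCL5, also a CXCR2 ligand, had 0.611 TPM in MDA PCa 2b against 0.953 TPM in RC77 T/E, just under the cutoff. CXCL6 had 0.0743 TPM in MDA PCa 2b against 0.182 TPM in RC77 T/E, although its window above is nearly the same as that of CXCL5. Levels therefore differed among genes of this cluster that all hold the motif.

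Along the 359 kb cluster on chromosome 4 from CXCL8 to CXCL2, genes above and below 1 TPM were interspersed. Of its 9 genes, 1 in MDA PCa 2b but 4 in RC77 T/E were at 1 TPM or more, against 57.9% and 61.7% of all protein-coding genes. The platelet chemokines PF4, PF4V1 and PPBP lie between CXCL6 and CXCL5 in this cluster and carry names outside the rule. PF4 and PF4V1 were listed at 0 in both lines, and PPBP had 0.0203 TPM in MDA PCa 2b against 0 in RC77 T/E. CXCL1 lies between PF4V1 and PF4 and still had 4.01 TPM in RC77 T/E.

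**Figure D2:**
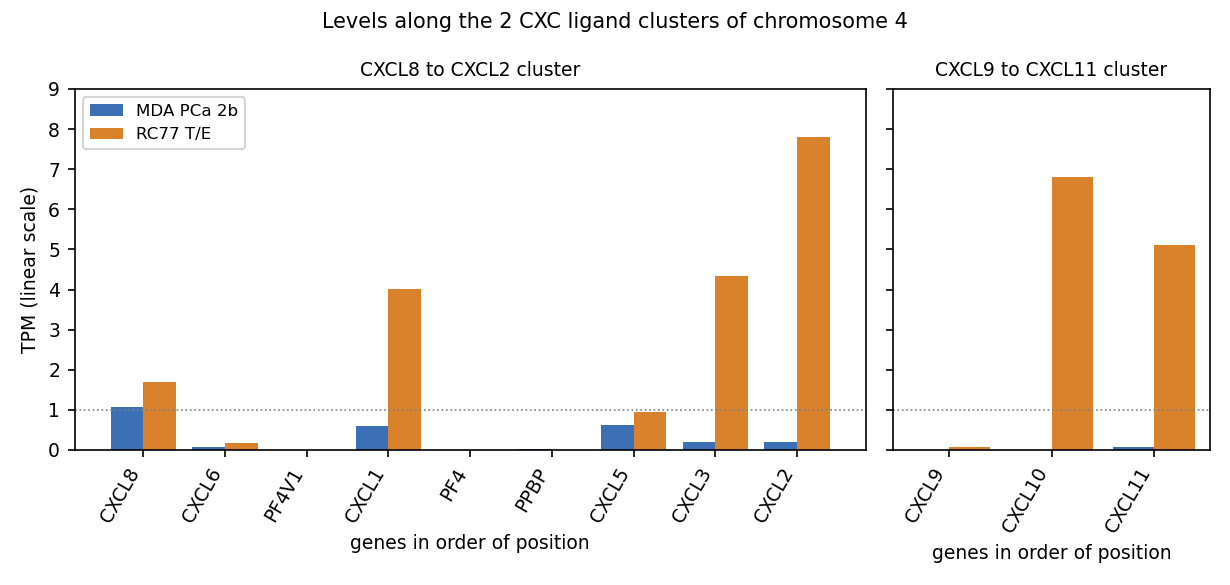
TPM (linear y axis) of each gene in chromosomal order along the clusters from CXCL8 to CXCL2 (9 genes) and from CXCL9 to CXCL11 (3 genes), with 1 bar per library and a dotted line at 1 TPM. The RC77 T/E bars of CXCL1, CXCL2, CXCL3, CXCL10 and CXCL11 stand between 4.01 and 7.81 TPM, CXCL10 being drawn at its lowest possible value.

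CXCL10 and CXCL11 are interferon-induced ligands of CXCR3, a receptor of activated T cells. CXCL11 (ENSG00000169248, chr4:76033682-76041415) had 0.0782 TPM in MDA PCa 2b against 5.10 TPM in RC77 T/E, a log2 difference of 2.5. CXCL10 (ENSG00000169245, chr4:76021118-76023497) was listed at 0 in MDA PCa 2b. Its RC77 T/E value lost its decimal mark in the table and could be 6.80, 68.0 or 680.2 TPM, so that its log2 difference was between 2.96 and 9.41. The third gene of the cluster, CXCL9, had 0.00769 TPM in MDA PCa 2b against 0.0667 TPM in RC77 T/E, and was below 0.1 TPM in both lines. Both CXCL10 and CXCL11 overlap ART3 on the opposite strand, which had 0 TPM in MDA PCa 2b against 0.213 TPM in RC77 T/E.

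CXCL16 and CXCL17 lie outside these clusters. CXCL16 (ENSG00000161921, chr17:4733533-4739928), a transmembrane ligand of CXCR6 that also acts as a scavenger receptor, was the highest ligand in MDA PCa 2b with all open marks at their lowest position. Its values were 30.8 TPM in MDA PCa 2b against 14.9 TPM in RC77 T/E, or 10 times higher in both lines at the other possible position of the mark (307.6 and 149.2 TPM). At either position it was 2.06 times higher in MDA PCa 2b, which gave a log2 difference of -0.997 or -1.04, just outside or just inside the 2-fold limit. The gene overlaps MED11, a Mediator subunit gene, on the opposite strand. MED11 had 30.5 TPM in MDA PCa 2b against 13.2 TPM in RC77 T/E, or 305.3 and 132.1 TPM at the other position, close to CXCL16 in both lines. Whether the quantification used strand was not given in the sources used here, and the part of MED11 in the CXCL16 values was not tested. CXCL17 (ENSG00000189377, chr19:42428278-42442946), a chemokine of mucosal tissues, had 0.0192 TPM in MDA PCa 2b against 2.35 TPM in RC77 T/E, a log2 difference of 1.72.

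The homeostatic ligand CXCL12, which marrow and stromal cells make to retain CXCR4-bearing cells, went the other way. It had 0.543 TPM in MDA PCa 2b and was listed at 0 in RC77 T/E. Its receptor CXCR4 had 0.537 TPM in MDA PCa 2b and was likewise listed at 0 in RC77 T/E. Among 6 fibroblast markers, COL1A1, COL1A2, COL3A1, DCN and LUM stood between 0.491 and 0.588 TPM in MDA PCa 2b and PDGFRA at 0.0491 TPM. In RC77 T/E, COL3A1 and LUM were at 0, while COL1A1 had 8.24 TPM. The summed level of the 6 markers was 2.78 TPM in MDA PCa 2b against 9.17 TPM in RC77 T/E, and their part in the CXCL12 value was not tested. Of the other CXC ligands, CXCL14 had 0.114 TPM in MDA PCa 2b against 0.272 TPM in RC77 T/E, and CXCL13 was listed at 0 in both lines.

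Of 24 CC ligands, which mostly attract monocytes, T cells and eosinophils, 2 were at 1 TPM or more, both in RC77 T/E only. Of all protein-coding genes, 7.75% were at that level in RC77 T/E only. CCL20 (ENSG00000115009, chr2:227805739-227817564), the ligand of CCR6 on dendritic cells and type 17 T cells, had 0.157 TPM in MDA PCa 2b against 40.2 TPM in RC77 T/E. Its log2 difference of 5.15 was the largest among the genes with a settled decimal mark, and none of its 31-base stretches occurs in another gene. CCL28 (ENSG00000151882, chr5:43376645-43412391), a mucosal epithelial chemokine, had 0.209 TPM in MDA PCa 2b against 1.58 TPM in RC77 T/E. Its log2 difference was 1.10, but its mean of 0.897 TPM kept it out of the counts above. CCL5, an attractant of T cells and monocytes, fell just short of the cutoff, with 0 TPM in MDA PCa 2b against 0.955 TPM in RC77 T/E. CCL27, a skin chemokine that shares CCR10 with CCL28, had 0 TPM in MDA PCa 2b against 0.438 TPM in RC77 T/E.

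The monocyte and eosinophil attractants of chromosome 17 were at or near 0 in both libraries. In the cluster of CCL2, CCL7, CCL11, CCL8, CCL13 and CCL1, 4 of 6 genes were listed at 0 in both lines. The remaining CCL2 and CCL11 had 0.0480 and 0.0892 TPM in MDA PCa 2b against 0 in RC77 T/E. In the second cluster, from CCL5 to CCL3L1, 3 of 8 genes were listed at 0 in both lines, and after CCL5 the highest was CCL18 with 0.165 TPM in MDA PCa 2b. CCL3L1 had 0.0236 TPM in MDA PCa 2b against 0.0419 TPM in RC77 T/E, summed over 2 loci of that name. Its near copy CCL3 had 0.0426 TPM in MDA PCa 2b against 0 in RC77 T/E. Of the 31-base stretches of CCL3L1, 21.3% occur in CCL3, and 20.9% of those of CCL3 occur in CCL3L1, so the 2 genes cannot be fully separated at these levels.

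Among the remaining ligands, CX3CL1 and XCL1 pointed in opposite directions. CX3CL1 (ENSG00000006210, chr16:57372477-57385044), or fractalkine, a membrane-bound adhesion ligand for CX3CR1 on monocytes and natural killer cells, had 0.0220 TPM in MDA PCa 2b against 8.79 TPM in RC77 T/E. The log2 difference was 3.26. Its chromosome 16 neighbours CCL22 and CCL17, ligands of CCR4, were instead higher in MDA PCa 2b at low levels. CCL22 had 0.262 TPM in MDA PCa 2b against 0.0731 TPM in RC77 T/E, and CCL17 had 0.122 and 0 TPM. XCL1 (ENSG00000143184, chr1:168576605-168582069), a lymphocyte chemokine read by dendritic cells through XCR1, could be 2.48, 24.8 or 247.7 TPM in MDA PCa 2b because of its lost decimal mark, and it was listed at 0 in RC77 T/E. Its copy XCL2 was listed at 0 in both lines, and 25.4% of the 31-base stretches of XCL1 and 63.6% of those of XCL2 occur in the other gene.

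**Figure D3:**
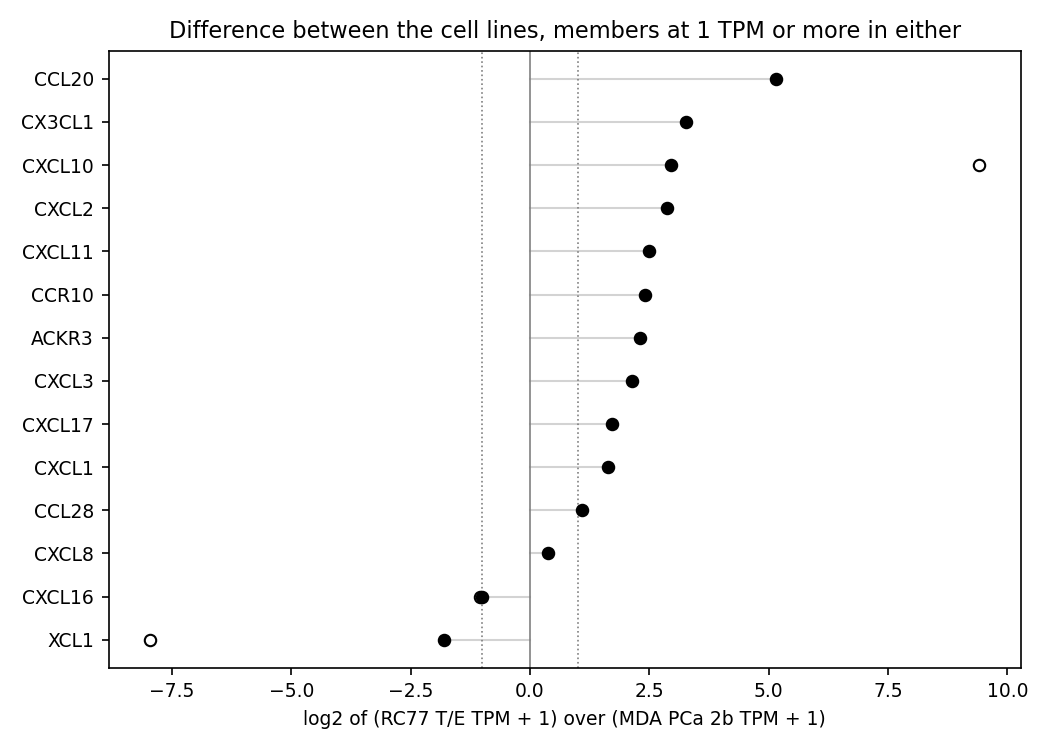
Log2 of (RC77 T/E TPM + 1) over (MDA PCa 2b TPM + 1) for the 14 genes at 1 TPM or more in either line (filled points), with dotted lines at 2-fold and open circles at the highest position of an open decimal mark. Of these genes, 12 lie right of 0, led by CCL20 at 5.15, and CXCL16 and XCL1 lie left of it. At 1 TPM or more only in RC77 T/E were 11 genes and only in MDA PCa 2b XCL1, so the choice of genes set their direction. The shares of all protein-coding genes were 7.75% and 4%.

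Receptor transcripts were scarcer than ligand transcripts. Of 22 receptors, none reached 1 TPM in MDA PCa 2b, whereas 2 did in RC77 T/E, CCR10 and ACKR3. The shares of all protein-coding genes were 57.9% and 61.7%. CCR10 (ENSG00000184451, chr17:42678889-42683917), which guides plasma cells and skin T cells towards CCL27 and CCL28, had 0.0113 TPM in MDA PCa 2b against 4.38 TPM in RC77 T/E. Its log2 difference was 2.41. CCR10 overlaps the neural gene CNTNAP1 on the opposite strand, which had 0.124 TPM in MDA PCa 2b against 8.18 TPM in RC77 T/E. The part of CNTNAP1 in the CCR10 values was not tested.

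Receptors of inflammatory CC ligands were at or near 0. CCR1 was listed at 0 in both lines. CCR3 had 0 TPM in MDA PCa 2b against 0.0117 TPM in RC77 T/E. After CCR10, the highest CC receptor value was 0.192 TPM, of CCR7 in RC77 T/E. Among 6 CXC receptors, CXCR4 in MDA PCa 2b was the highest, and in RC77 T/E none was above 0.0917 TPM. CXCR1 and CXCR2, the neutrophil receptors of the CXCL1 to CXCL8 group, were at 0.0308 TPM or lower in both lines. On chromosome 3, 8 receptor genes from CCR9 to CCRL2 span 526 kb, and the highest value among them was 0.213 TPM, of CXCR6 in MDA PCa 2b.

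Atypical receptors were the receptor group with the highest median in RC77 T/E (0.364 TPM, against 0.0619 TPM in MDA PCa 2b). ACKR3 (ENSG00000144476, chr2:236567787-236582354), also named CXCR7, which takes up CXCL11 and CXCL12, had 0.0759 TPM in MDA PCa 2b against 4.34 TPM in RC77 T/E, a log2 difference of 2.31. ACKR4, which takes up CCL19, CCL21 and CCL25, had 0.0479 TPM in MDA PCa 2b against 0.540 TPM in RC77 T/E. ACKR2, a scavenger of inflammatory CC ligands, was higher in the other line, with 0.541 TPM in MDA PCa 2b against 0.188 TPM in RC77 T/E. ACKR1 had 0.0281 TPM in MDA PCa 2b against 0 in RC77 T/E.

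Ligands and receptors were then set side by side over 49 textbook pairs (40 with a signalling receptor and 9 with an atypical one). With both partners at 1 TPM or more there was no pair for MDA PCa 2b, and there were 2 pairs for RC77 T/E. These were CCL28 with CCR10 (1.58 and 4.38 TPM) and CXCL11 with ACKR3 (5.10 and 4.34 TPM). The part of the overlapping CNTNAP1 in the CCR10 value was not tested, and no share over other gene pairs was computed. In RC77 T/E, 10 ligands at 1 TPM or more had a listed receptor. Of their 8 signalling receptors, CCR10 had 4.38 TPM and the others stayed at 0.0779 TPM or lower. CCL20 at 40.2 TPM stood beside 0.0158 TPM of CCR6. CX3CL1 at 8.79 TPM stood beside CX3CR1 listed at 0. In MDA PCa 2b, CXCL16 stood beside 0.213 TPM of CXCR6, and XCL1 beside 0.0124 TPM of XCR1. CXCL12 and CXCR4 had 0.543 and 0.537 TPM in that line, both under the cutoff. Levels of mRNA do not give the surface protein.

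**Figure D4:**
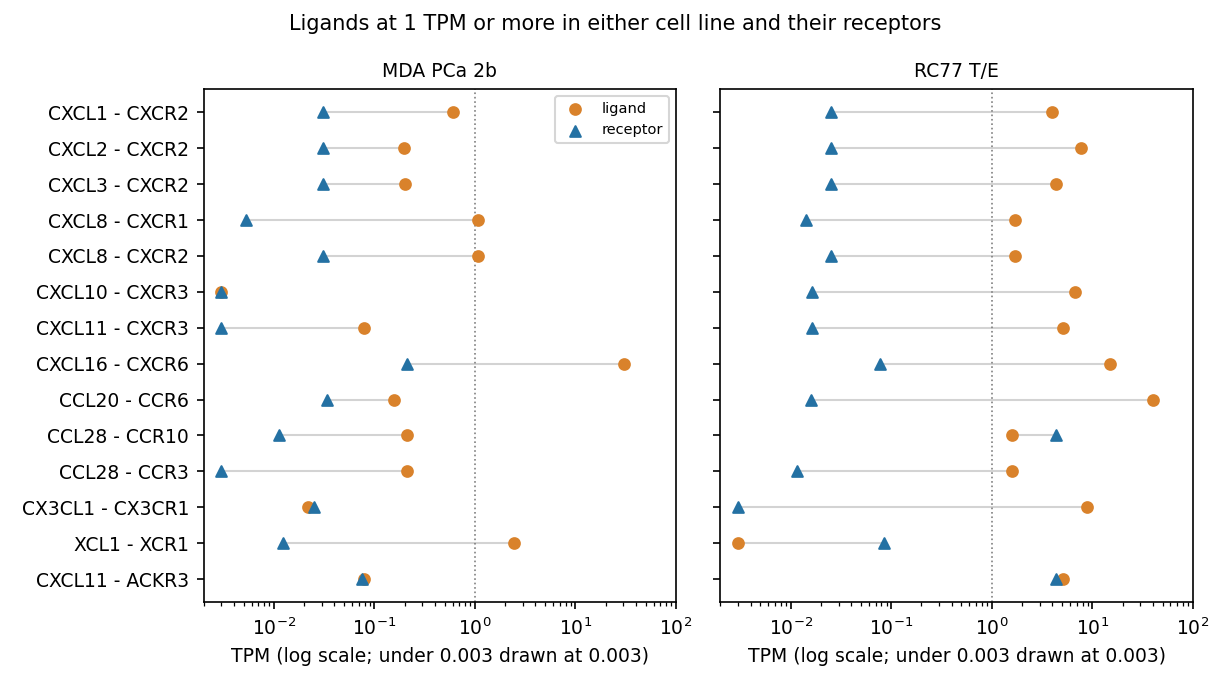
TPM (log x axis) of ligands at 1 TPM or more in either line (circles) and of their listed receptors (triangles) in each library, with a dotted line at 1 TPM. In RC77 T/E, CCL28 with CCR10 and CXCL11 with ACKR3 have both points right of the line, and in MDA PCa 2b no pair does.

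Other genes of the pathway were read from lists of signal transducers, regulators and presenting molecules, with open decimal marks at the lowest position. The median log2 difference over the analysed genes of a list is given beside -0.016, the median over all protein-coding genes above 0 in either library. Counts of 2-fold genes are over those with a mean of at least 1 TPM and stand against the 19.1% (RC77 T/E) and 19.7% (MDA PCa 2b) of all protein-coding genes given above. Of the genes counted, GNAI1, GRK5, RAC2, TNF, GBP1 and FAP were under 1 TPM in MDA PCa 2b. ARRB1, SDC2 and DPP4 were under it in RC77 T/E. These genes passed the limit on the mean only through the line in which they were high, so their part in the counts is no separate result. Of 24 signal transducers, 22 were analysed here, and GRK2 and GRK3 were not. Among 13 with such a mean, 4 were higher by 2-fold or more in RC77 T/E (GNAI1, GNAI2, GRK5, RAC2) and 2 in MDA PCa 2b (ARRB1, RGS2), with a median of -0.0025. GNAI1, an inhibitory G protein subunit used by these receptors, had 0.0579 TPM in MDA PCa 2b against 19.3 TPM in RC77 T/E. RAC2, a GTPase best known from blood cells, had 0.113 TPM in MDA PCa 2b against 74.2 TPM in RC77 T/E. ARRB1, an arrestin that desensitises receptors, had 9.06 TPM in MDA PCa 2b against 0.197 TPM in RC77 T/E. PIK3CG, VAV1, DOCK2 and ELMO1 were at 0.0453 TPM or lower in both lines. PLCB2, PIK3R5 and PREX1 had 0.0716, 0 and 0.866 TPM in MDA PCa 2b against 0.313, 0.546 and 0.484 TPM in RC77 T/E.

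Of 16 genes in the NF-kB list, 15 had a mean of at least 1 TPM. Of these, 3 were higher by 2-fold or more in RC77 T/E (TNFAIP3, TNF, ICAM1), a share near the 19.1% of all genes, and 1 was in MDA PCa 2b (BIRC3, against 19.7%). The median was 0.016. The subunit genes RELA and RELB were close between the lines. RELA had 24.8 TPM in MDA PCa 2b against 21.6 TPM in RC77 T/E, and RELB had 10.8 and 11.5 TPM. TNF, a cytokine that activates NF-kB, had 0.282 TPM in MDA PCa 2b against 3.51 TPM in RC77 T/E. The 8 genes with the motif included 6 at 1 TPM or more in RC77 T/E, against 61.7% of all protein-coding genes. The share over all genes with the motif was not computed, and a link between motif and level was not tested. CCL20, CCL28 and CXCL17 also reached that level, had a promoter entry and held no match to GGANTTTCC. Other forms of an NF-kB site were not searched, so their presence in these promoters was not tested. CX3CL1, CCR10, ACKR3 and CXCL16 had no promoter entry that was matched.

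**Figure D5:**
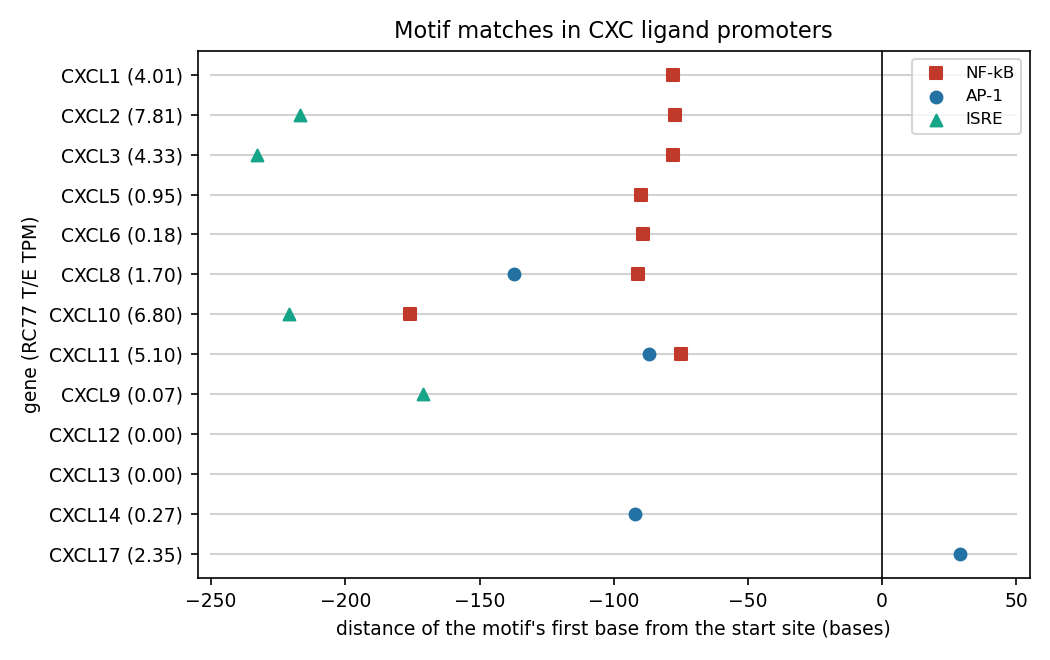
Position of NF-kB, AP-1 and ISRE motif matches (x axis, bases from the start site) in 13 CXC ligand promoters (rows), with the RC77 T/E TPM of each gene in its label. The NF-kB match lies between 75 and 91 bases before the start in 7 genes and 176 bases before it in CXCL10.

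An AP-1 motif (TGANTCA) occurred in 7.71% of all promoters and in 9 of the 43 genes. An interferon response motif (ISRE, GAAANNGAA) occurred in 8.11% and in 11 of the 43, again by entry and by gene. Among the CXC ligands, CXCL2, CXCL3, CXCL9 and CXCL10 held the ISRE motif. Of 11 interferon-gamma pathway genes, 7 had a mean of at least 1 TPM, and 5 of the 7 (against 19.1% of all genes) were higher by 2-fold or more in RC77 T/E (IFNGR1, IFNGR2, JAK1, JAK2, GBP1) and none in MDA PCa 2b, with a median of 0.95. GBP1, an interferon-induced GTPase, had 0.646 TPM in MDA PCa 2b against 7.98 TPM in RC77 T/E. IFNG itself was listed at 0 in both lines. IDO1, another interferon target, was at 0.00892 TPM or lower in both lines.

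Presentation and trimming genes decide how chemokines are held on heparan sulphate or cut. Of 12 such genes, all with a mean of at least 1 TPM, 6 (against 19.1% of all genes) were higher by 2-fold or more in RC77 T/E (SDC4, GPC1, EXT1, EXT2, ADAM17, FAP) and 2 (against 19.7%) in MDA PCa 2b (SDC2, DPP4), with a median of 1.26. ADAM17, a sheddase of CX3CL1 and CXCL16, had 7.79 TPM in MDA PCa 2b against 25.1 TPM in RC77 T/E at the lowest position of its mark. DPP4, a protease that inactivates CXCL10, CXCL11 and CXCL12, had 4.31 TPM in MDA PCa 2b against 0.498 TPM in RC77 T/E. SDC2, a heparan sulphate carrier, had 30.9 TPM in MDA PCa 2b against 0.230 TPM in RC77 T/E.

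Markers of other cell types were read beside these results. Of 12 leukocyte markers, none reached 1 TPM in MDA PCa 2b, whereas 2 did in RC77 T/E, CD68 (37.9 TPM) and CD14 (4.92 TPM). Their summed level was 1.57 TPM in MDA PCa 2b against 43.2 TPM in RC77 T/E. The pan-leukocyte marker PTPRC had 0.0113 TPM in MDA PCa 2b against 0 in RC77 T/E, and CD3D and MS4A1 were listed at 0 in both lines. None of 5 endothelial and 6 platelet markers reached 1 TPM in either line. The epithelial genes KRT8 and KRT18 were above 31 TPM in both libraries. KLK3, the androgen-driven prostate-specific antigen gene, had 5323 TPM in MDA PCa 2b against 0 in RC77 T/E. The basal keratin KRT5 had 0.00435 TPM in MDA PCa 2b against 4027 TPM in RC77 T/E.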

How the data were processed

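Total RNA of 2 untreated cell lines (1 library each) was sequenced as paired-end directional libraries. The submitters' processing notes name CASAVA, FastQC 0.11.9, Trimmomatic 0.38, Salmon 1.2.0 and GRCh38, without roles. The deposited table gives, per the file headers, TPM of each line with the authors' mean and standard error of the 2 values. All per-sample columns were used. In values of 1 TPM or more the deposited decimal mark was missing, which the design had not assumed. It was restored as the position that satisfied the authors' mean and standard error. Of 22704 loci, 16211 had 1 position and 6493 had several, and the lowest was used. On 5000 simulated rows, 3375 had 1 position, and all 3375 were true. Those rows were written under the rules by which they were read, so this checks the code and not the deposited marks. Among the 63 genes 3 kept several positions (CXCL10, CXCL16, XCL1).

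Loci of the same symbol were summed. Levels were compared at 1 TPM, and log2 ratios used a pseudocount of 1 TPM and a mean of at least 1 TPM. No test was possible with 1 library per line, depth is unknown, and counting intervals were not computed. Named genes were those at 1 TPM or more in either line, receptors and near copies of the CCL3L1 axis, their known partners, and list members 2-fold apart. Genes named below these levels were chosen after their values were seen. Some items of these lists are not reported here. The members, lists and pairs were chosen with earlier results of these data known. Coordinates are those of the table, and overlaps and 31-base stretches come from GENCODE 29, in which all 63 Ensembl identifiers were found. Motifs were read from RefSeq promoters (GRCh38.p14). Python 3.11.15, numpy 2.4.6 and matplotlib 3.10.9 were used.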

Additional observations from a re-analysis of the deposited data

How the results depend on the processing

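No paired analysis was possible because only 1 library represents each line, and leaving out a replicate was not possible for the same reason. None of the counts or medians changed direction under the alternatives run. Genes at 1 TPM or more numbered 3 in MDA PCa 2b and became 8 at a threshold of 0.5 TPM, 17 at 0.1 TPM and 1 at 5 TPM. In RC77 T/E the 13 genes became 22 at 0.1 TPM and 6 at 5 TPM. The 10 genes higher by 2-fold or more in RC77 T/E became 4 with a pseudocount of 5 TPM, which also took all protein-coding genes past 2-fold from 2100 higher and 2170 lower to 1139 and 1049. The single gene higher in MDA PCa 2b became 2 with a pseudocount of 0.1 TPM, with open decimal marks at the highest position or with commas read as digit grouping, and 0 with a pseudocount of 5 TPM. The median log2 difference of 2.31 became 4.66 with a pseudocount of 0.1 TPM, 0.88 with 5 TPM, 0.056 over all genes above 0 (against -0.016 for protein-coding genes), and 17.87 with commas read as digit grouping, which puts both lines on different scales. Scaling to the upper quartile of expressed genes moved the share of 2-fold genes that were higher in RC77 T/E from 49.2% to 59.5% (2474 against 1683), and centring on the median moved it to 57.8% (2387 against 1743). Neither changed the 10 and 1 genes counted here, which passed the limit on the mean only through the line in which they were high. All 14 named log2 differences kept their sign under every alternative, but a change of pseudocount cannot alter a sign, and the largest locus left all 14 the same. The size changed by a factor over 1.5 for 12 of the 14 with a pseudocount of 0.1 TPM. It did so for 13 with 5 TPM and for 13 with commas read as digit grouping. TPM keeps no depth, so values near 0 have no stated precision, and the line, its medium and its single library cannot be told apart.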
